A study of Rattus norvegicus with 6 samples.

Results

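The genes of the collagen chains were followed across 6 cultures of stem cells grown from the skeletal muscle of male rats. A gene was taken as a member when a probe set of the array (several short oligonucleotides summarised in 1 value) carried its symbol alone and that symbol had the form Col, number, a, number. This gave 37 probe sets for 36 genes, of 18166 named genes in all. RNA from each culture was hybridised to 1 Affymetrix Rat Gene 2.0 ST array. The cholesterol cells received 100 mg/dl cholesterol on the carrier cyclodextrin, and the fatty acid library is read here as the sodium palmitate treatment that the protocols describe. Libraries titled OZ serum, LZ serum, high glucose control and low glucose control complete the series. The titles OZ and LZ are used as given, and the sources used here give no rat strain, age, palmitate dose, serum or glucose amount or treatment time. Nor do the labels say whether a control held cyclodextrin or which control belongs to which lipid, so each lipid library was set against both. With 1 array in each group, values carry no error and nothing could be tested, so a difference describes these libraries rather than the conditions.

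Collagens are secreted proteins whose chains wind into a triple helix, with glycine repeated regularly along each chain. Fibrillar collagens such as types I, III, V and XI form the cables that carry tension in muscle connective tissue. Type IV makes the sheet of the basement membrane that wraps muscle fibres, type VI forms beaded filaments beside that sheet, and fibril-associated collagens such as type XII sit on the surface of fibrils. Fibroblasts and related mesenchymal cells make most of the collagen in muscle.

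A gene was counted as measured when its mean log2 intensity over the 6 arrays reached the median of all values, 6.74, which 11540 genes did. Median intensities of the arrays ran from 104.6 to 109.2, and the number of arrays limits the precision. Of 7 myogenic markers only Pax7, the satellite cell transcription factor, and desmin (Des) were measured, at log2 6.90 to 7.26 and 6.83 to 7.05, while Myod1 stayed between 6.17 and 6.48. All 8 annotated mesenchymal markers were measured, among them Thy1 at 13.17 to 13.51 and Vim at 13.72 to 13.79. The other 5 myogenic markers were not measured, and the lowest value in that list was 5.36. No myogenic marker was above 7.26 in any library, and the lowest value in the mesenchymal list was 6.18, below the threshold. Values of different probe sets are not on a common scale, so these levels do not rank the cell types.

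Of the 36 collagen genes, 27 were measured. They were 10 fibrillar, 5 type IV, 2 type VI and 3 fibril-associated chains, and 7 of other kinds, namely network-forming type VIII, multiplexin and transmembrane collagens. The other 9 (Col24a1, Col6a6, Col9a1, Col14a1, Col19a1, Col20a1, Col7a1, Col10a1 and Col26a1) had mean log2 intensities from 5.31 to 6.73 and differed across the 6 libraries by at most 0.48. Col17a1, at a mean of 6.80, was the measured chain nearest to the threshold and Col24a1, at 6.73, the nearest below it. The array's values for different probe sets are not on a common scale, so chains are compared between libraries and not with each other by level.

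Most measured collagen chains had their lowest value in a lipid library. The fatty acid library held the lowest of the 6 values for 16 of 27 chains, where it did so for 29.0% of all measured genes. The cholesterol library held it for 8 chains, against 17.5% of all genes. OZ serum held it for 2 chains (20.0% of all genes), the high glucose control for Col17a1 (11.0%), and LZ serum and the low glucose control for none (8.73% and 13.9%). The low glucose control held the highest value for 17 chains, against 17.7% of all genes, and LZ serum for 6, against 6.98%. Each of the other libraries held it for 1 chain: cholesterol (22.6% of all genes), fatty acid (30.0%), OZ serum (9.22%) and high glucose (13.5%). For 16 chains both lipid libraries lay below all of the other 4, a pattern that 13.2% of all measured genes had. No chain had both lipid libraries above the other 4, where 15.6% of genes did. These counts of extremes were added after the values were seen. In a culture as a whole, fewer cells that make collagen and less collagen RNA per cell cannot be told apart.

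**Figure D1:**
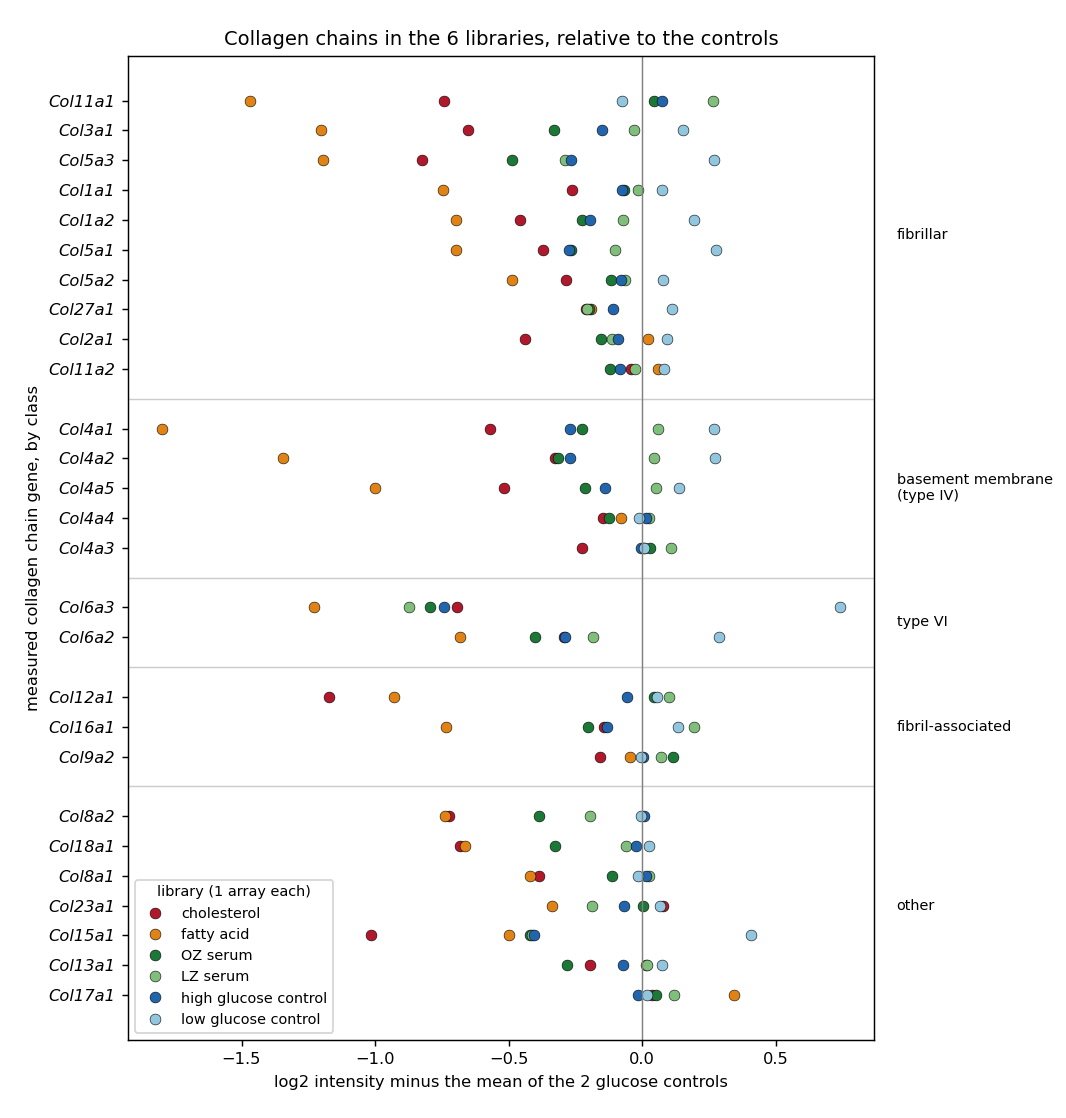
Each row is a measured collagen chain gene and each point 1 library (1 array), placed on the x axis by its log2 intensity minus the mean of both glucose controls. Fatty acid points lie far to the left for Col4a1, Col4a2 and Col11a1, cholesterol points for Col12a1 and Col15a1, and the low glucose control stands alone on the right for Col6a3.

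**Figure D2:**
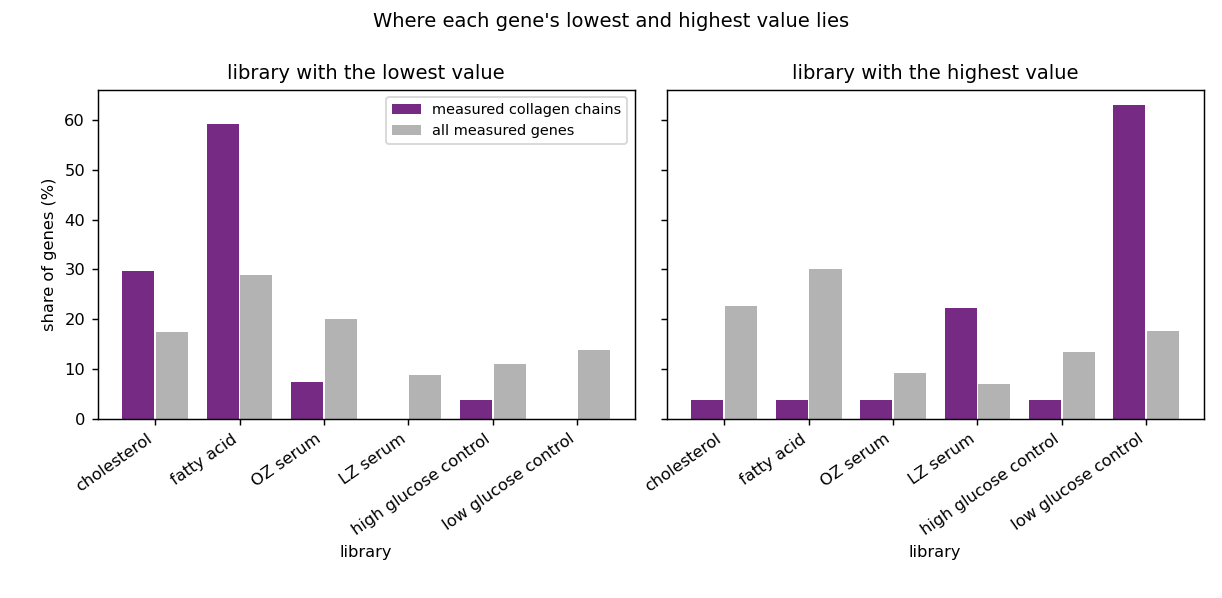
Bars give the share of genes, in percent, whose lowest (left) or highest (right) value lies in each library, for the 27 measured collagen chains and for all 11540 measured genes. The fatty acid library holds the lowest value of 59.3% of the chains and the low glucose control the highest value of 63.0%.

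The first comparison asks how collagen genes in cells given fatty acid differed from those in control cells. The basement membrane chains Col4a1 and Col4a2 and the fibrillar chains Col11a1 and Col3a1 stood 2-fold or more below both controls, and no collagen chain was 2-fold higher. These 4 of 27 chains compare with 2.01% of all measured genes that were 2-fold lower and 0.641% that were 2-fold higher. Below both controls by any amount lay 22 chains, against 39.7% of all genes. Above both by any amount lay 1, against 40.4%. At 1.5-fold 11 chains were lower, against 6.13% of all genes, and none was higher, against 2.92%. The median difference of the 27 chains was -0.43 from the high and -0.82 from the low glucose control, where that of all genes was 0.01 and -0.00. A difference against both controls is given below as the smaller of the pair, on the log2 scale.

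Col4a1 and Col4a2 encode the chains of the common type IV collagen, found in nearly all basement membranes. Col4a1 (probe set 17709399) had a log2 intensity of 9.58 in the cholesterol, 8.35 in the fatty acid, 9.92 in the OZ serum, 10.21 in the LZ serum library, and 9.88 and 10.42 in the high and low glucose controls. Col4a2 (probe set 17713164) stood at 9.44 with cholesterol, 8.42 with fatty acid, 9.45 with OZ serum, 9.81 with LZ serum, 9.50 with high and 10.04 with low glucose. Both were lowest with fatty acid and highest in the low glucose control, and the fatty acid library was the outlying one for both. The fatty acid differences from the nearer control were -1.53 for Col4a1 and -1.07 for Col4a2, or 2.89-fold and 2.10-fold lower. Between the controls, high minus low glucose was -0.54 for each of them.

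In the rat genome these genes lie head to head on chromosome 16, and the starts that RefSeq annotates on GRCr8 lie 77 bases apart. Both rose from fatty acid through cholesterol and high glucose to low glucose. That order is not particular to this pair, as Col4a5, Col3a1, Col1a1 and Col1a2 had it too. The stretch that the pair shares is shown first, with 28 bases on either side of the starts (chr16:84885492-84885625, plus strand, the direction of Col4a1). Below it are the 250 bases before the start of Col4a3 (chr9:91323740-91323989, plus strand), which lies 413 bases from the opposite start of Col4a4 and whose gene did not follow them, and the same before Col11a1 (chr2:204508886-204509135, plus strand), the fibrillar chain with the largest fatty acid difference. Capitals mark the GC box GGGCGG, the CCAAT box and the TATA box TATAAA on either strand, none of which overlapped another.
Col4a1 and Col4a2: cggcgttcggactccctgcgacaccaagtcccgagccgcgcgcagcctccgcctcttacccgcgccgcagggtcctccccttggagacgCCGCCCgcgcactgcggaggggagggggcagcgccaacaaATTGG
Col4a3: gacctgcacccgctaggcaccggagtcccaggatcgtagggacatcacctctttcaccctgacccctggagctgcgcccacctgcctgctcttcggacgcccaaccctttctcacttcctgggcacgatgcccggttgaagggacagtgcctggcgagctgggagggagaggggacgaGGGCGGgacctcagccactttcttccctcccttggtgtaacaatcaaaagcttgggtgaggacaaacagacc
Col11a1: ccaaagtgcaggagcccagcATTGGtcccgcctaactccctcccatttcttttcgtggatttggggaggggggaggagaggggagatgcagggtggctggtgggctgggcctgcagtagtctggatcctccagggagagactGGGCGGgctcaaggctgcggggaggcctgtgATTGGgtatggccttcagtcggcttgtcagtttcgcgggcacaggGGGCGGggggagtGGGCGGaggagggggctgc

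The shared type IV stretch is 73.1% G and C, with a GC box between the starts and a CCAAT box on the minus strand after the start of Col4a1. The Col4a3 stretch holds 1 GC box and no CCAAT box, and that of Col11a1 holds 3 GC boxes and 2 CCAAT boxes. A TATA box is in none of the 3. The type IV stretch has 134 bases and the others 250, so these counts are not compared. In its full window of 300 bases Col4a1 has 2 GC and 2 CCAAT boxes, and Col4a2 has 2 GC boxes and 1 CCAAT box. Of all 33469 RefSeq windows of 300 bases (250 before and 50 after a start), 33.1% hold the GC box, 37.5% the CCAAT box and 14.2% the TATA box. RefSeq windows matched 30 of the 36 collagen genes, and of the 22 measured chains among them 14 hold a GC box, 6 a CCAAT box and 3 a TATA box. Such matches of letters describe the sequence only.

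The remaining type IV chains were split. Col4a5, which takes part in the networks of specialised basement membranes, followed Col4a1 and Col4a2. Its log2 intensity was 7.59 with cholesterol, 7.11 with fatty acid, 7.89 with OZ serum, 8.16 with LZ serum, 7.97 with high and 8.25 with low glucose. At -0.86 against the nearer control it stayed short of 2-fold, though it was -1.14 from the low glucose control. Col4a3, a chain of the kidney and lung network, had a value of 7.47 with fatty acid and of 7.46 and 7.47 in the high and low glucose controls. Its partner Col4a4 had 6.98 with fatty acid against 7.07 and 7.05 in the controls. Col4a3 and Col4a4 thus differed little from the controls, and Col4a4 lay close to the threshold for measured genes.

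**Figure D3:**
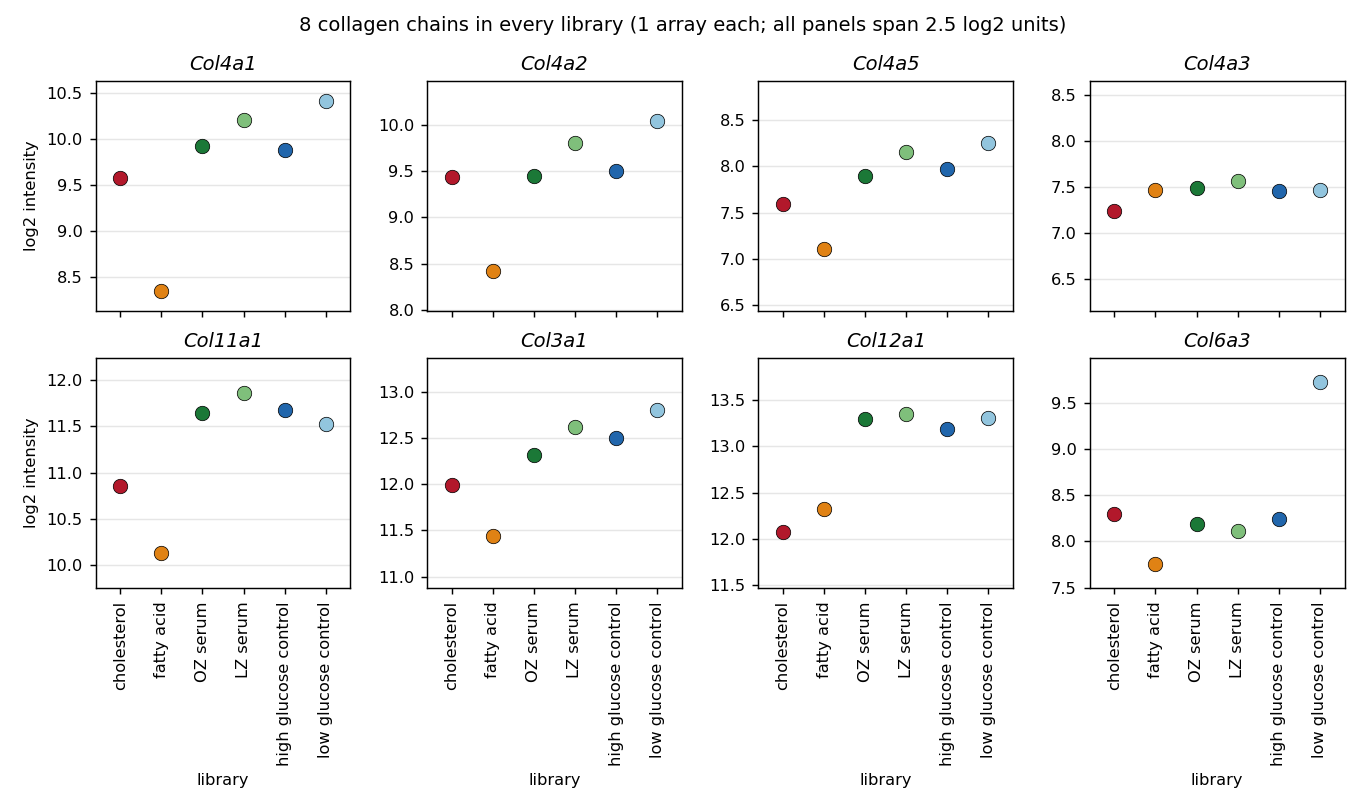
Points give the log2 intensity of 8 collagen chains in each library (1 array each), and every panel spans the same range of 2.5 log2 units. Col4a1, Col4a2, Col4a5, Col11a1 and Col3a1 are lowest with fatty acid, Col12a1 is lowest with cholesterol, Col4a3 stays within 7.24 to 7.57, and Col6a3 is at 9.73 in the low glucose control against at most 8.29 elsewhere.

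Among fibrillar chains, the fatty acid library had 8 of 10 below both controls and none above both. Col11a1 (probe set 17742074), a chain of the type XI collagen that nucleates thin fibrils in cartilage and developing connective tissue, had a log2 intensity of 10.86 with cholesterol, 10.13 with fatty acid, 11.64 with OZ serum, 11.86 with LZ serum, 11.67 with high and 11.52 with low glucose. The 4 serum and control libraries lay above both lipid libraries, and the fatty acid value was 2.63-fold below the nearer control. Col11a2, its partner in type XI, ranged only from 7.10 to 7.30 over the 6 libraries. Of the 6 annotated chondrocyte markers 3 were measured. Their summed intensity was 1171 in the cholesterol and 493 in the fatty acid library, against 2235 to 2714 in the other 4. That sum mainly follows Hapln1, a cartilage link protein. It was the only 1 of the 3 at 2-fold below both controls with either lipid (all measured genes 0.806% with cholesterol, 2.01% with fatty acid). With fatty acid 2 of the 3 lay below both controls and 1 above, against 39.7% and 40.4% of all measured genes. Hapln1 was at log2 9.79 with cholesterol and 7.59 with fatty acid, against 10.90 and more in the other 4. Acan, the cartilage proteoglycan, was at log2 6.38 to 6.53 in every library and not measured. The part of this in the Col11a1 difference was not tested.

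Col3a1 (probe set 17858944), the single chain of type III collagen, which is abundant in pliable tissue, had 12.00 with cholesterol, 11.45 with fatty acid, 12.32 with OZ serum, 12.62 with LZ serum, 12.50 with high and 12.80 with low glucose. It was 2.07-fold lower with fatty acid than in the nearer control, although its difference from the nearest of the 4 serum and control libraries was -0.87. Col5a2, its neighbour on chromosome 9 and a chain of the type V collagen that sets fibril diameter, was at -0.41. The chains of type I collagen, the main fibre of connective tissue, were lower by less than 2-fold. Col1a1 had 13.36 with cholesterol, 12.87 with fatty acid, 13.55 with OZ serum, 13.60 with LZ serum, 13.54 with high and 13.69 with low glucose. Col1a2 had 12.68 with cholesterol, 12.44 with fatty acid, 12.91 with OZ serum, 13.06 with LZ serum, 12.94 with high and 13.33 with low glucose. For both, the lipid libraries lay below the other 4, with fatty acid differences of -0.67 and -0.50.

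Type V chains differed with fatty acid by -0.93 in Col5a3 and -0.42 in Col5a1. Col5a3 was at 7.92 with cholesterol, 7.55 with fatty acid, 8.26 with OZ serum, 8.46 with LZ serum, 8.48 with high and 9.02 with low glucose, so that its 2 highest values were the controls. Col5a1 had a second probe set, and the differences of both from the high glucose control were alike, at -0.42 and -0.48. From the low glucose control they were -0.97 and -0.54. Col27a1, another fibrillar chain, was at -0.08, and Col2a1 and Col11a2, cartilage chains, lay between the controls.

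Fibril-associated and type VI chains were also below both controls with fatty acid. Col12a1 was at -0.87 and Col16a1, a chain found beside fibrils and basement membranes, at -0.60, while Col9a2, which coats cartilage fibrils, was at -0.04. The type VI chains Col6a2 and Col6a3 were at -0.39 and -0.49 against the high glucose control and at -0.97 and -1.97 against the low glucose control. In the remaining chains, Col8a2 was at -0.73 and Col8a1, the other type VIII chain of vascular and corneal sheets, at -0.41. Col18a1, the basement membrane multiplexin from which endostatin is cut, was at -0.64. Only Col17a1, a transmembrane collagen of hemidesmosomes, was above both controls, at 0.33, with a log2 intensity of 7.06 near the threshold. Against the low glucose control alone, 7 chains were 2-fold lower, with Col4a5, Col5a3 and Col6a3 added, and against the high glucose control alone 4 were. The share of all measured genes against a single control was not computed, so these counts have no baseline.

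Cholesterol was compared with the same controls, and since these are shared, the values of the lipids are given side by side without a measure of their likeness. Collagen chains were lower by small amounts: 23 of 27 lay below both controls, against 33.6% of all measured genes, and 2 above both, against 36.3%. Only Col12a1 was 2-fold lower, where 0.806% of all genes were, and no chain was 2-fold higher, where 0.381% were. At 1.5-fold 5 chains were lower, against 2.04% of all genes, and none was higher, against 1.36%. The median difference was -0.21 from the high and -0.58 from the low glucose control. With the low glucose control alone the count at 2-fold was 4, with Col15a1, Col6a3 and Col5a3 added, and with the high glucose control alone it was 1. Here too no share of all measured genes was computed for a single control.

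Col12a1 (probe set 17854185) encodes the long chain of type XII collagen, which bridges type I fibrils and is needed by tendon and muscle matrix. Its log2 intensity was 12.08 with cholesterol, 12.32 with fatty acid, 13.29 with OZ serum, 13.35 with LZ serum, 13.19 with high and 13.30 with low glucose. The 4 serum and control libraries lay between 13.19 and 13.35 and the lipid libraries well below them. The cholesterol value was 2.17-fold and the fatty acid value 1.83-fold below the nearer control. Neither of the other measured fibril-associated chains did the same with cholesterol, as Col16a1 was at -0.01 and Col9a2 at -0.15.

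The other chains at 1.5-fold with cholesterol were Col8a2, Col11a1, Col18a1 and Col15a1. Col8a2 had 8.25 with cholesterol, 8.23 with fatty acid, 8.58 with OZ serum, 8.78 with LZ serum, 8.97 with high and 8.96 with low glucose. Its difference was -0.72 with cholesterol and -0.73 with fatty acid, and that of Col8a1 was -0.37 and -0.41. Both type VIII chains thus had nearly the same values in the lipid libraries. Col18a1 was likewise at -0.66 with cholesterol and -0.64 with fatty acid. Col15a1, the multiplexin of basement membranes next to muscle and vessels, had 7.35 with cholesterol, 7.87 with fatty acid, 7.95 with OZ serum, 7.96 with LZ serum, 7.96 with high and 8.77 with low glucose. It was -0.61 with cholesterol and -0.09 with fatty acid, so only the cholesterol library stood below the high glucose control by a wide margin.

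For the chains described above with fatty acid, the cholesterol values were as follows. Col4a1 was at -0.30, Col4a2 at -0.06 and Col4a5 at -0.38 from the nearer control. Col11a1 was at -0.67, Col5a3 at -0.56 and Col3a1 at -0.50. The type I chains differed by -0.19 in Col1a1 and -0.27 in Col1a2. Type VI chains were near the high glucose control, with Col6a3 at 0.05 from it and at -1.44 from the low glucose control. Col23a1, a transmembrane collagen, and Col17a1 were above both controls by 0.01 and 0.02.

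Set against each other directly, the cholesterol library had Col4a1 at 1.23 and Col4a2 at 1.02 above the fatty acid library, or 2.34-fold and 2.02-fold. These 2 of 27 chains compare with 1.92% of all measured genes 2-fold higher with cholesterol. None was 2-fold lower, where 0.901% of genes were. For Col4a2 the difference came to 0.97 with quantile-normalized arrays and 0.95 with 32 added to each intensity, short of 2-fold. At 1.5-fold 4 chains were higher with cholesterol, against 7.43% of all genes, and none lower, against 4.31%. Col11a1 at 0.73, Col16a1 at 0.59, Col3a1 at 0.55, Col6a3 at 0.54, Col4a5 at 0.48 and Col1a1 at 0.48 came next. On the other side lay Col15a1 at -0.52 and Col2a1 at -0.46. In all, 16 chains were higher and 11 lower with cholesterol, where 51.9% of all genes were higher and 48.0% lower. The median of 0.20 over measured chains was 0.37 over the 15 chains of stronger signal, where at least 1 array reached log2 8.68 (Col5a3, Col6a3 and Col15a1 through the low glucose control alone), and -0.02 when unmeasured chains were added.

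By class, type IV chains had the lowest median with fatty acid against the high glucose control, at -0.86, followed by fibril-associated chains at -0.60, fibrillar at -0.46, type VI at -0.44 and other chains at -0.27. Against the low glucose control the type VI median was lowest, at -1.47, followed by -1.14 for type IV, -0.87 for fibril-associated, -0.86 for fibrillar and -0.41 for other chains. With cholesterol the medians against the high glucose control were -0.40 for other chains, -0.24 for fibrillar, -0.22 for type IV, -0.16 for fibril-associated and 0.02 for type VI chains. Against the low glucose control they were -1.01 for type VI, -0.60 for type IV, -0.59 for fibrillar, -0.37 for other and -0.28 for fibril-associated chains. Type VI holds 2 measured genes and the fibril-associated class 3, so those medians rest on few genes, and within type IV the range with fatty acid ran from -1.53 to 0.01 against high glucose. No test of a difference between classes was possible.

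**Figure D4:**
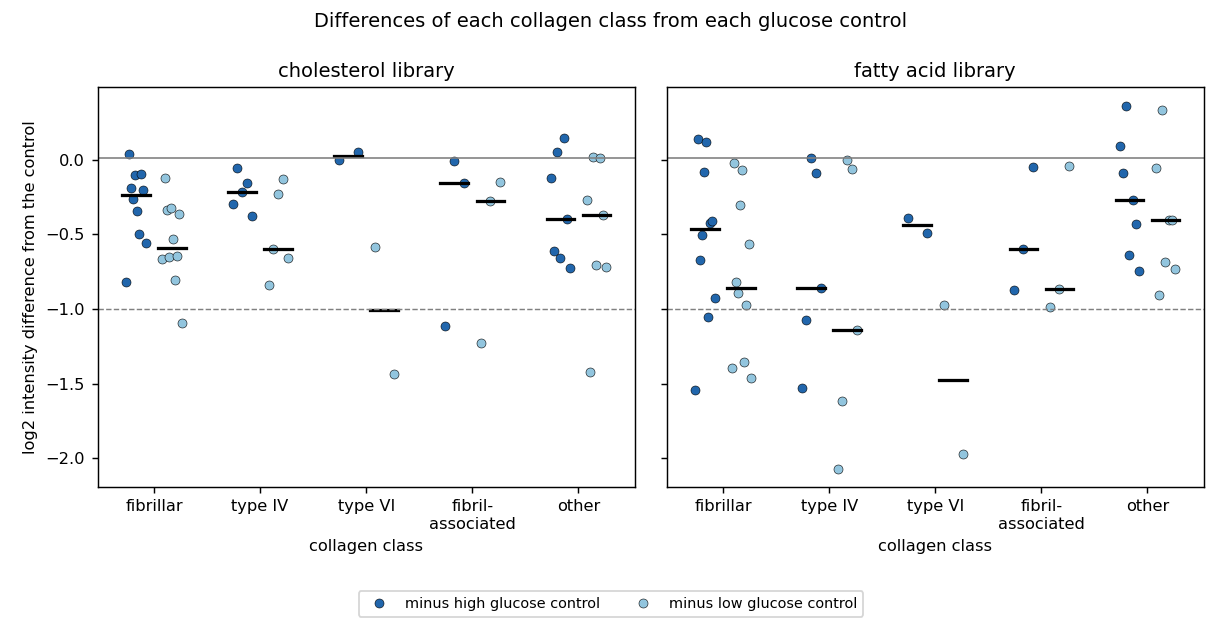
Points are the log2 differences of single measured chains in the cholesterol (left) and fatty acid (right) libraries from the high glucose control (dark) and the low glucose control (light), and black bars are class medians. The solid grey line is the median difference of all measured genes from the high glucose control, and the dashed line a 2-fold lower value. Type IV falls into chains near 0 and chains below -0.8 with fatty acid, and the type VI values depend on the control.

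High and low glucose were set against each other to see how far the controls lie apart. In the high glucose control 22 of 27 chains were lower than in the low glucose control, against 51.1% of all genes, and 5 were higher, against 48.9%, with a median of -0.16 where all genes had -0.01. Only Col6a3 was 2-fold lower, where 0.104% of all genes were, and no chain was 2-fold higher, where 0.251% were. At 1.5-fold Col6a3 and Col15a1 were lower, against 1.11% of all genes, and no chain was higher, against 1.59%. Col6a3 (probe set 17866373) encodes the largest chain of type VI collagen. It had 8.29 with cholesterol, 7.76 with fatty acid, 8.19 with OZ serum, 8.11 with LZ serum, 8.24 with high and 9.73 with low glucose. The low glucose control alone stood apart, 2.79-fold above the high glucose control, and the other 5 values lay between 7.76 and 8.29.

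Col6a2, the second measured type VI chain, had 10.93 with cholesterol, 10.54 with fatty acid, 10.82 with OZ serum, 11.04 with LZ serum, 10.93 with high and 11.51 with low glucose. It too was highest in the low glucose control, and high minus low glucose was -0.58. Col15a1 differed by -0.81, Col5a1 by -0.55, Col5a3, Col4a1 and Col4a2 by -0.54 each and Col1a2 by -0.39 in high minus low glucose. For Col5a1 the second probe set gave -0.06. The type VIII chains differed by 0.03 and 0.01, and Col11a1 was higher with high glucose, by 0.15.

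The serum libraries were compared with each other and with the controls. OZ serum was below LZ serum in 23 of 27 chains, where 58.1% of all genes were, and above it in 4, against 41.9%, with a median of -0.15 against -0.03 for all genes. The differences were small, and none reached 1.5-fold, which 0.147% of all genes did toward lower and 0.113% toward higher values, with 0.0260% at 2-fold lower. Col16a1 at -0.40, Col4a2 at -0.36, Col3a1 at -0.30 and Col13a1 at -0.30 were the farthest below, and Col23a1 at 0.19 the farthest above. All 5 type IV chains were lower with OZ serum, by a median of -0.27. Both serum libraries were below both controls in 7 chains, against 19.7% of all genes, and above both in 3, against 8.83%. The largest of these differences was -0.19, in Col8a2, and no collagen chain was 1.5-fold apart from both controls in both serum libraries, where 0.00867% of all genes were in each direction.

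Genes that modify, export, trim, crosslink and bind collagen were read from 9 lists, whose counts against both controls are set beside those of the chains. With fatty acid, median differences (from high, then from low glucose) were -1.08 and -1.10 for propeptide processing, -0.75 and -0.84 for basement membrane partners, -0.70 and -1.11 for crosslinking oxidases and -0.59 and -0.70 for hydroxylation and glycosylation. They were -0.89 and -0.40 for fibril partners, -0.67 and -0.81 for receptors, -0.37 and -0.45 for chaperones and secretion, -0.15 and -0.29 for regulators and -0.11 and -0.08 for degrading proteases. With cholesterol they ran from -0.50 and -0.57 for propeptide processing to 0.01 and -0.12 for receptors and -0.02 and 0.03 for degrading proteases. All measured genes had medians between -0.00 and 0.01 in these comparisons. The counts below stand against 39.7% of all measured genes lower and 40.4% higher with fatty acid, and 33.6% lower and 36.3% higher with cholesterol. At 2-fold, 2.01% were lower and 0.641% higher with fatty acid, and 0.806% lower and 0.381% higher with cholesterol. All 4 genes of propeptide processing that were below both controls, of 5 measured, were 2-fold lower: Adamts2, which removes the amino-terminal propeptide, at -1.71, the proteases Tll1 at -1.41 and Bmp1 at -1.03, which remove the carboxy-terminal one, and the enhancer Pcolce at -1.07. With cholesterol the same 4 were at -0.62, -0.92, -0.50 and -0.17. In hydroxylation and glycosylation, 12 of 13 genes were lower with fatty acid and 7 of 13 with cholesterol. P3h2, a prolyl 3-hydroxylase that acts on type IV collagen, was at -3.34 with fatty acid and -2.04 with cholesterol, and it alone was 2-fold lower in that list. Its log2 intensity was 9.49 and 9.06 in the high and low glucose controls. With fatty acid it was 5.72, below the threshold for measured genes, and with cholesterol 7.02, near that threshold. Plod2, a lysyl hydroxylase, and Crtap, a partner of prolyl 3-hydroxylase 1, were at -0.86 and -0.83 with fatty acid.

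Basement membrane partners had 9 of 12 genes lower with each lipid. At 2-fold there were 4 with fatty acid, namely the laminin chain Lama4 at -2.08, the nidogens Nid2 at -1.56 and Nid1 at -1.23, which link laminin to type IV collagen, and Smoc2 at -1.54. With cholesterol they were at -1.06, -0.75, -0.33 and -0.06, so that only Lama4 reached 2-fold. Among 5 crosslinking oxidases 4 were lower with fatty acid and 4 with cholesterol, and Loxl1 reached -1.11 with fatty acid, while Lox itself was at 13.41 with fatty acid against 13.47 and 13.37 in the controls. Of 11 chaperone and secretion genes 10 were lower with each lipid and none 2-fold, with Creb3l1, a transcription factor that drives collagen export, at -0.91 with fatty acid and -0.43 with cholesterol.

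Of 7 measured collagen receptors 6 were lower with fatty acid, and the integrin chains Itga11, at -1.41, and Itga1, at -1.24, reached 2-fold. With cholesterol 2 were lower and 2 higher, shares near those of all genes, and Itga2, another collagen-binding integrin chain, was 2-fold higher at 1.33. In 11 fibril assembly partners 10 were lower with fatty acid and 7 with cholesterol, among them Ogn at -3.08 and -1.57. Of 16 regulators, 12 were lower and 3 higher with fatty acid, 8 lower and 4 higher with cholesterol, and Tgfb2, a growth factor that induces collagen, was at -1.17 with fatty acid and -0.84 with cholesterol. Degrading proteases and their inhibitors were mixed: 6 of 12 were lower and 4 higher with fatty acid, where Mmp3, a stromelysin, was at 1.61 and Fap, a fibroblast protease that trims cleaved collagen, was 2.003-fold lower, and 6 were lower and 6 higher with cholesterol.

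**Figure D5:**
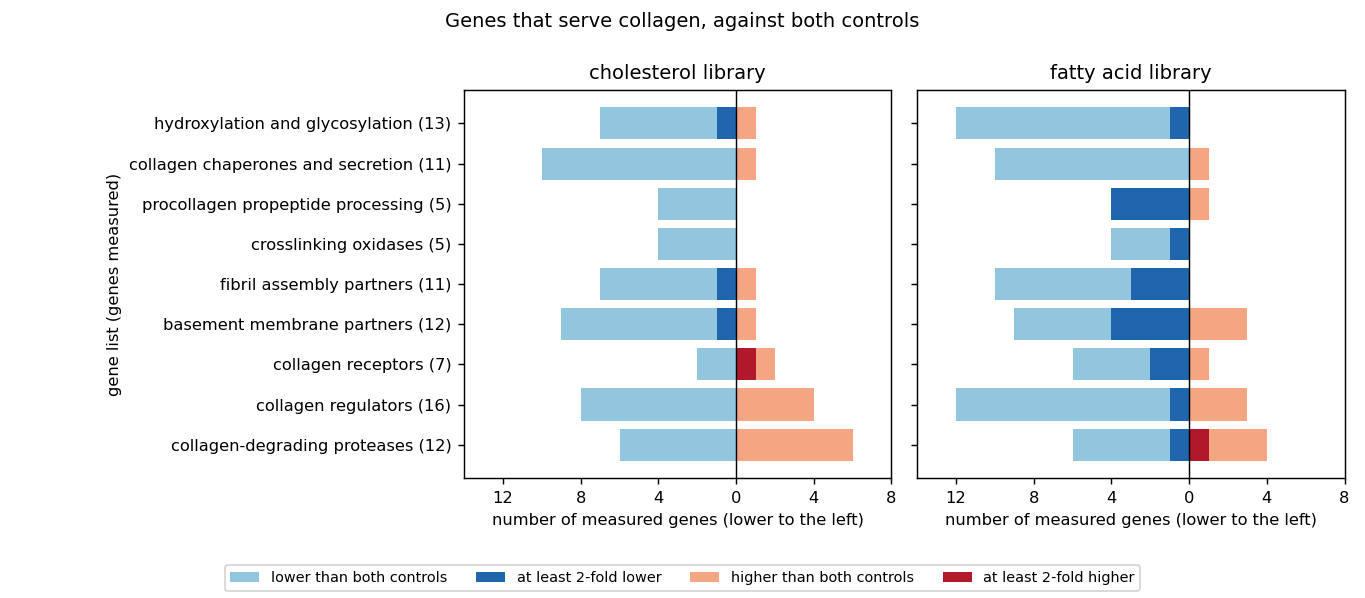
Bars count the measured genes of each list that were lower (left, blue) or higher (right, red) than both glucose controls in the cholesterol and fatty acid libraries, with dark shades for differences of at least 2-fold. Fatty acid has 4 genes of propeptide processing and 4 basement membrane partners at 2-fold lower, and cholesterol has 0 and 1.

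Markers of several cell types also differed between these libraries. Of 8 mesenchymal markers measured, 5 were below and 1 above both controls with fatty acid, likewise with cholesterol, none at 2-fold. Their median differences from high and low glucose were -0.61 and -0.44 with fatty acid, where the chains had -0.43 and -0.82, and -0.15 and -0.05 with cholesterol, where the chains had -0.21 and -0.58. Their summed intensity was 42298 in the cholesterol and 38657 in the fatty acid library, against 42670 to 45039 in the other 4. The endothelial markers Cdh5, Tek, Vwf and Emcn, whose cell type makes type IV and type XV collagen, were not measured. Erg, an endothelial transcription factor also made in cartilage, was, at 7.43 in both lipid libraries, 8.70 with OZ serum, 8.96 with LZ serum, 9.26 with high and 8.21 with low glucose. Of 7 macrophage or leukocyte markers Cd68 and Cd14 were measured, and both were above both controls with cholesterol, by 1.56 and 0.51, while with fatty acid they were at 0.40 and -0.60. Their summed intensity was 1452 with cholesterol and 489 with fatty acid, against 626 to 898 in the other 4. Ptprc, Adgre1, Csf1r, Itgam and Aif1, which define those cells, were not measured, with values of at most 6.40. Of the Schwann cell, keratinocyte and adipocyte markers 3, 1 and 2 were measured, and none of them was 2-fold apart from both controls with a lipid. The part of these markers in the collagen differences was not tested.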

How the data were processed

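The deposited values are intensity values of 36685 probe sets on 6 arrays, on a linear scale, per the values themselves. Rat Gene 2.0 ST arrays were run by a core laboratory, per the labels' protocols. How the authors summarised, background-corrected and normalized them is not given in the sources used here. Columns had nearly equal medians and were used as deposited, as log2 without an offset, so a difference in total RNA between cultures could not be measured. Names came from the platform annotation (1 gene for 18511, several for 575, none for 17599), and only those with 1 gene were used. All 37 collagen probe sets matched RefSeq (GRCr8) by Entrez identifier, with 0 symbols changed. Of several probe sets of a gene the one with the highest mean was taken. Against both controls a gene's value is the smaller log2 difference when both share a sign and 0 otherwise, counted at 2-fold. Both serum libraries against both controls use the smallest of all 4 differences. The members and lists were chosen with earlier results of these data known. Named chains were those at 2-fold in a comparison, the extremes of their class and partners of the same type, and up to 4 genes with the largest lipid differences per list. Lox and Lum were named after values were seen. The counting was tested on simulated data. Alternatives were quantile normalization, median centring, other signal filters (none, or the highest array at the 75th percentile), the mean of probe sets, an offset of 32, a 1.5-fold threshold and single controls or sera. Python 3.11.15, numpy 2.4.6, pandas 2.3.3 and matplotlib 3.10.9 were used.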

Additional observations from a re-analysis of the deposited data

How the results depend on the processing

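Of the summary values of the comparisons under the alternatives, 231 stayed close to the main value, 33 moved and 2 reversed. Small shifts were allowed within the 231. The cholesterol type VI median from high glucose, for example, was 0.02 in the main setting and -0.02 with median centring. The 231 also include counts of 0 that stayed 0. They include 2-fold counts without a filter too, which the added chains, spanning at most 0.48, could not change. The 231 are thus no measure of robustness. Quantile normalization and an offset of 32 each left 1 chain 2-fold higher with cholesterol than with fatty acid, and the offset gave a fatty acid type IV median of -0.98 from low glucose. At 1.5-fold the counts were 5 lower with cholesterol, 11 lower with fatty acid, 4 higher with cholesterol against fatty acid and 2 lower with high against low glucose. With the low glucose control alone the counts at 2-fold were 4 lower with cholesterol, 7 lower with fatty acid and 1 lower (Col6a3) in both serum libraries. Shares of all measured genes were not computed for single controls, so those counts have no baseline. Without a signal filter, cholesterol medians were -0.33 from low glucose for all chains, -0.58 from low glucose for type VI and -0.15 from high glucose for other chains. Fatty acid medians were then -0.18 and -0.40 from high and low glucose for all chains, -0.97 from low glucose for type VI, -0.0505 and 0.0099 for fibril-associated chains, the last with reversed sign, and -0.0784 and -0.25 for other chains. Cholesterol against fatty acid then had a median of -0.02, also reversed. These shifts came with 9 chains of low signal added to 27. The stricter filter kept 15 chains, with only Col12a1 left of the fibril-associated class and only Col4a1 and Col4a2 of type IV. Cholesterol values from high and low glucose were then -1.12 and -1.23 for Col12a1. Medians of other chains were -0.61 and -0.72. Fatty acid medians were -0.67 and -0.97 for all chains, -0.67 from high glucose for fibrillar, and -0.43 and -0.73 for other chains. Those of the 2 type IV chains were -1.30 and -1.84, and Col12a1 was at -0.87 from high glucose. Cholesterol against fatty acid had 0.37 and high against low glucose -0.39. Of these 15 chains, Col5a3, Col6a3 and Col15a1 passed only through the low glucose control, where they are high. Medians from low glucose that include them rest in part on that selection and support nothing. The type IV and fibril-associated values include none of them, and the size of any shift was not tested. Adding both serum libraries to the controls, an alternative chosen after seeing the data, put Col3a1 at -0.87 and left 3 chains 2-fold lower with fatty acid. Elsewhere the cause was not tested. No alternative of scaling, filter, probe sets or offset moved the median of all genes outside -0.064 to 0.036.

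No paired analysis was possible because each group has 1 array. Nothing bounds the difference that repeated cultures of 1 condition would show, and how far background compresses differences near the signal threshold was not tested. Agents, carriers and handling of a culture cannot be told apart from its library.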

Other observations

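Of 11 fibril assembly partners 5 were lower and 6 higher in the high than in the low glucose control, with a median of 0.02 (all measured genes -0.01). Tgfbi was 2-fold lower and Lum 2-fold higher, where 0.104% and 0.251% of all measured genes were. Tgfbi, a secreted protein that binds collagen, had a log2 intensity of 11.54 with cholesterol, 9.29 with fatty acid, 10.77 with OZ serum, 10.56 with LZ serum, 10.34 with high and 11.48 with low glucose. High minus low glucose was thus -1.14. Lum, a small proteoglycan of fibrils, went the other way, with 1.68 more in the high glucose control at 8.18 against 6.50 in the low glucose control, and had 5.98 with cholesterol, 6.02 with fatty acid, 7.48 with OZ serum and 7.72 with LZ serum. Both differences between controls were picked out after the values were seen.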
